A study of Mus musculus with 6 samples.

Results

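Interferon-stimulated genes were examined in RNA sequencing libraries of the tibialis anterior (TA) muscle, a fast limb muscle, from aged wild-type (WT) mice and aged mice with knockout (KO) of the selenoprotein SELENOW. They comprise 9 genes, Ifit1, Ifit2, Ifit3, Isg15, Irf7, Oasl2, Rtp4, Bst2 and Usp18, found by symbol among the 55416 genes of the deposited count table. All 9 were present, and 8 passed the filter on low counts that left 15623 genes to test. Isg15 did not pass and is described by its counts. There were 3 WT and 3 KO libraries, all from mice raised to 24 months of age. The study describes the KO line as made by deleting exon 4 of the gene with a pair of guide RNAs. Per its methods, both lines were kept on a C57BL/6N background and, unless stated otherwise, mice were male. The methods name no driver that would restrict the deletion to muscle. WT libraries are named W, W2 and W3 and KO libraries K1, K2 and K3, after the columns of the table. The study describes the samples of a group as separate mice, although the labels do not tie a library to an animal, and the p-values measure the spread between these libraries.

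Total counts ranged from 25351976 to 29111213 per library, and a gene with 3 counts corresponded to 0.0934 to 0.122 CPM, the count scaled to a common library size with TMM factors. All 11 skeletal muscle markers were detected in every library, with a summed level between 91050 and 114206 CPM. Mitochondrially encoded genes took 29.1% to 37.3% of the counts in WT and 35.4% to 40.3% in KO libraries. Selenow, the targeted gene, had 268, 245 and 219 CPM in W, W2 and W3 and 193, 212 and 210 CPM in K1, K2 and K3. Its KO libraries lay below its WT libraries, and its log2 fold change of -0.25 (SE 0.14, n = 3 and 3) had an adjusted p of 0.604 in edgeR's quasi-likelihood test. The count is summed over the whole gene and not over exon 4, so it does not check the deletion. Separately from these libraries, the study reports loss of the SELENOW protein in TA muscle of KO mice by Western blot.

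Interferons are secreted proteins, and cells release those of type I when they sense viral or displaced nucleic acid. Type I interferons bind the IFNAR receptor, which leads through JAK kinases to a transcription complex that includes STAT2 and IRF9, and this complex binds interferon-stimulated response elements (ISREs) in the promoters of its targets. Type II interferon (interferon gamma) has a receptor of its own and acts on its targets through gamma-activated sites. The genes examined here include antiviral effectors (Ifit1, Ifit2, Ifit3, Oasl2, Bst2), a ubiquitin-like modifier and the protease that removes it (Isg15, Usp18), a transcription factor that amplifies the response (Irf7) and a chaperone of membrane receptors (Rtp4).

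The promoters of these genes are shown for the sequence element that the pathway acts on. RefSeq promoters (build GRCm38.p6, 250 bases before to 50 bases after the start) were found for 7 of the 9 genes. Rtp4 and Usp18 had no entry. The core of an ISRE was searched as GAAA, any 2 bases, GAAA on both strands, which reads TTTC, any 2 bases, TTTC on the other strand. Among 32851 promoters of the same length, 3.44% held at least 1 match and 0.225% held more than 1. Matches were present in Isg15, Bst2, Ifit3 and Ifit1, each with more than 1, and none was present in Oasl2, Irf7 or Ifit2. The stretches are printed 5′ to 3′ on the strand of the gene, with the bases covered by a match in capitals and 15 bases on each side of the outermost matches. That of Isg15 (chr4:156200860-156200911, minus strand) held 3 overlapping matches between 78 and 57 bases before the start. In Bst2 (chr8:71537572-71537617, minus strand), 2 overlapping matches lay between 130 and 115 bases before the start. Ifit3 (chr19:34583358-34583431, plus strand) had 2 matches, 156 to 113 bases before the start, and its neighbour and close paralog Ifit3b (chr19:34607754-34607827, plus strand) carried the same 74 bases. Ifit1 (chr19:34640770-34640828, plus strand) held the same pair of matches at a shorter spacing, 104 to 76 bases before the start.
Isg15: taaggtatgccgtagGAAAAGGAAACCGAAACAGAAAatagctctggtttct
Bst2: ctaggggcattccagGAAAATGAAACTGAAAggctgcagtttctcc
Ifit3: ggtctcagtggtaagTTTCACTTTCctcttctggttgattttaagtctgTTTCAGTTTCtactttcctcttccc
Ifit3b: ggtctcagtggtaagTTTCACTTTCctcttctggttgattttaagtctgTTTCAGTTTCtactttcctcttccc
Ifit1: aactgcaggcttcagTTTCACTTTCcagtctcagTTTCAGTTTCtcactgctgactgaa
The gamma-activated site, searched as TTC, any 3 bases, GAA, was in 8.3% of all promoters and had 1 match each in Bst2 and in 1 of the 2 Ifit2 promoters. A match is a description of the letters and was not tied to binding in this muscle.

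To see whether loss of SELENOW went with a different level of the interferon response in aged muscle, the 9 genes were compared between KO and WT. None of the 8 tested genes passed the study's thresholds for differentially expressed genes (DEGs), an unadjusted p under 0.05 with a fold change over 1.5 or under 0.7, which 5.35% of all tested genes passed in edgeR. In the fit, 3 were higher and 5 lower in KO, with a median log2 fold change of -0.10 beside -0.0042 over all tested genes. In edgeR 0 of the 8 had an unadjusted p under 0.05, which 9.89% of all genes had, and 0 had an adjusted p under 0.05, which 0% of all genes had. DESeq2 also called 0 of the 8 at either threshold, beside 4.94% of all genes past the DEG thresholds and 0.288% with an adjusted p under 0.05. WT and KO libraries overlapped in 7 of the 8 tested genes, and 15.4% of all tested genes had groups that did not overlap. Because the libraries are from bulk muscle, fewer cells of a type and less RNA per cell cannot be told apart in any of these values.

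All 9 genes were expressed at a low level. Their counts ran from 7 to 130 per library and their levels from 0.262 to 4.05 CPM, against a median of 5.13 CPM over the tested genes. The standard errors of the 8 log2 fold changes were between 0.26 and 0.40. Their 95% intervals reached from 0.402 to 2.02 times the WT level at the outermost, and each of the 8 extended past a fold change of 0.7 or 1.5, so a change of that size was not excluded at this depth.

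**Figure D1:**
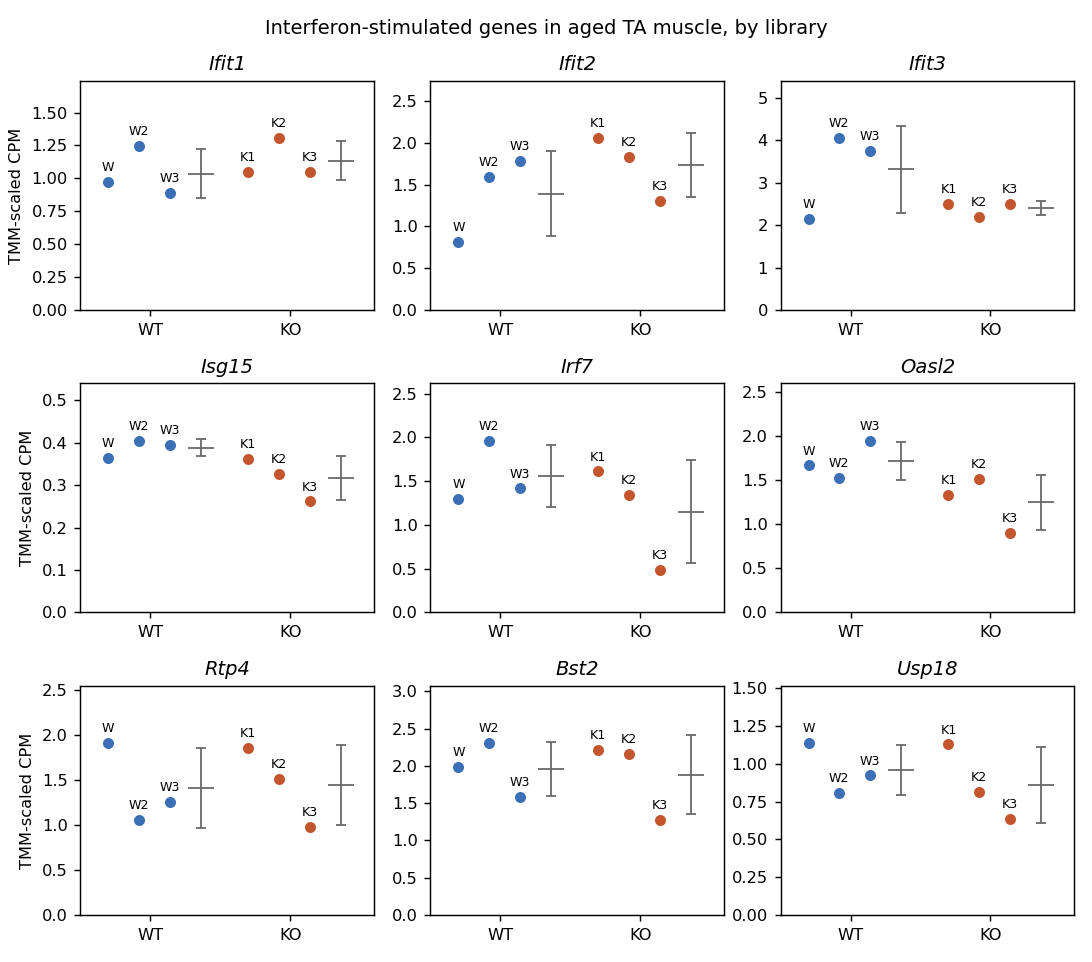
TMM-scaled CPM (vertical axes, linear and starting at 0) of the 9 interferon-stimulated genes in each WT (blue) and KO (orange) library, with the mean and SD of the 3 libraries of a group as a grey bar beside the points. The groups overlap in every panel except Oasl2 and Isg15, and K3 is the lowest point in 6 of the 9 panels.

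The IFIT genes encode cytoplasmic proteins that bind viral RNA or translation factors and lie next to each other on chromosome 19 (positions of the deposited table, GRCm39 per the submitters' processing notes). Ifit3 (ENSMUSG00000074896.4, chr19:34560931-34566131, plus strand, 1745 bases of exon in 2 blocks) had 53, 130 and 114 counts in W, W2 and W3 and 62, 54 and 67 counts in K1, K2 and K3. These correspond to 2.15, 4.05 and 3.75 CPM in WT and 2.50, 2.20 and 2.51 CPM in KO. W2 and W3 were above every KO library and W was below every one, so the groups overlapped. The mean was 3.32 ± 1.02 CPM (SD, n = 3) in WT and 2.40 ± 0.173 CPM in KO. Its log2 fold change of -0.47 (SE 0.26) had the smallest unadjusted p of the 8 genes, 0.0888, with an adjusted p of 0.581 in edgeR. The 95% interval ran from 0.491 to 1.06 times the WT level, and the exact two-sided permutation test over the 6 libraries gave p = 0.4. Without W, the library that lay apart from the other WT libraries, the value was -0.70 and passed the DEG thresholds in edgeR. In the other 5 fits that left out 1 library it did not pass, and these ranged up to -0.30.

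The Ifit3 transcript shares 97.8% of its bases with Ifit3b over 1700 bases, or 97.4% of its length, so reads could be split between the genes. Ifit3b had 4.38, 4.70 and 4.25 CPM in WT and 3.99, 3.26 and 4.68 CPM in KO, a log2 fold change of -0.16 (SE 0.19). With the counts of both genes summed, the log2 fold change was -0.28, with a 95% interval from -0.65 to 0.078.

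Ifit2 (ENSMUSG00000045932.13, chr19:34528094-34553819, plus strand, 3927 bases of exon in 4 blocks) had 20, 51 and 54 counts in WT and 51, 45 and 35 in KO. Its level was 0.811, 1.59 and 1.78 CPM in W, W2 and W3 and 2.05, 1.83 and 1.31 CPM in K1, K2 and K3. W was again the lowest library, while K1 and K2 were above all WT libraries. The log2 fold change was 0.30 (SE 0.33), with an interval from 0.750 to 2.02 times the WT level and an adjusted p of 0.792 in edgeR. Ifit1 (ENSMUSG00000034459.9, chr19:34618271-34627409, plus strand, 2656 bases of exon in 2 blocks) had 0.973, 1.25 and 0.889 CPM in WT and 1.05, 1.30 and 1.05 CPM in KO, from 24 to 40 counts. The KO libraries lay within or just above the WT range. Its log2 fold change was 0.12 (SE 0.31), with an interval from 0.679 to 1.75 times the WT level. The 3 IFIT genes thus had fitted values on both sides of zero, and none passed the test.

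Oasl2 (ENSMUSG00000029561.18, chr5:115034997-115050295, plus strand, 6374 bases of exon in 7 blocks), a relative of the oligoadenylate synthetases with ubiquitin-like domains, was the tested gene whose groups did not overlap. It had 41, 49 and 59 counts in WT and 33, 37 and 24 in KO. The levels were 1.66, 1.53 and 1.94 CPM in W, W2 and W3 and 1.33, 1.51 and 0.898 CPM in K1, K2 and K3. All KO libraries were below all WT libraries, although K2 and W2 were nearly equal. The mean was 1.71 ± 0.213 CPM (SD, n = 3) in WT and 1.25 ± 0.314 CPM in KO. The log2 fold change was -0.46 (SE 0.29), from 0.469 to 1.13 times the WT level, with an adjusted p of 0.637 in edgeR. The exact permutation test gave p = 0.1, the smallest that 3 against 3 libraries allow.

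Irf7 (ENSMUSG00000025498.16, chr7:140842619-140846394, minus strand, 3776 bases of exon in 1 merged block) encodes the transcription factor that drives interferon alpha genes. It had 32, 63 and 43 counts in WT and 40, 33 and 13 in KO, which is 1.30, 1.96 and 1.42 CPM against 1.61, 1.35 and 0.486 CPM. K1 and K2 lay inside the WT range and K3 lay far below it. The log2 fold change was -0.45 (SE 0.40), the widest error of the 8 genes, with an adjusted p of 0.736 in edgeR. Without K3 the value was -0.080 and without K1 it was -0.77.

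Bst2, Rtp4 and Usp18 showed the same low K3 value with KO libraries otherwise inside the WT range. Bst2 (ENSMUSG00000046718.9, chr8:71986899-71990100, minus strand, 903 bases of exon in 5 blocks), the tetherin that holds budding virus at the cell surface, had 1.99, 2.30 and 1.58 CPM in W, W2 and W3 and 2.22, 2.16 and 1.27 CPM in K1, K2 and K3. Its log2 fold change was -0.060 (SE 0.28), with an interval from 0.627 to 1.47 times the WT level. Rtp4 (ENSMUSG00000033355.7, chr16:23339041-23432972, plus strand, 2131 bases of exon in 7 blocks) had 1.91, 1.06 and 1.25 CPM in WT and 1.85, 1.51 and 0.973 CPM in KO. In WT the library W stood highest, the opposite of its place for Ifit2 and Ifit3. The log2 fold change was 0.047 (SE 0.34), from 0.622 to 1.72 times the WT level, and 13.9% of its exon bases overlap Gm45338 on the same strand.

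Usp18 (ENSMUSG00000030107.11, chr6:121222865-121247876, plus strand, 2790 bases of exon in 11 blocks) removes ISG15 from proteins and blocks the IFNAR receptor. It had 28, 26 and 28 counts in WT and 28, 20 and 17 in KO. The levels were 1.14, 0.809 and 0.922 CPM against 1.13, 0.815 and 0.636 CPM, so that only K3 lay outside the WT range. The log2 fold change was -0.15 (SE 0.36), from 0.524 to 1.55 times the WT level. The fitted values of Rtp4, Bst2 and Usp18 each changed sign when 1 library was left out, so no direction can be given for them.

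Isg15 (ENSMUSG00000035692.8, chr4:156283912-156285253, minus strand, 703 bases of exon in 2 blocks) had 9, 13 and 12 counts in WT and 9, 8 and 7 in KO. Its levels were 0.365, 0.405 and 0.395 CPM in W, W2 and W3 and 0.363, 0.326 and 0.262 CPM in K1, K2 and K3. The groups did not overlap, but W and K1 both had 9 counts and were separated only by their scaling. In an edgeR fit without a filter on low counts the log2 fold change was -0.31 (SE 0.59), with an interval from 0.361 to 1.81 times the WT level and an adjusted p of 0.877. The data do not exclude a difference anywhere within this interval. A processed pseudogene, AC151275.1, matches 63.8% of the Isg15 transcript at 95.2% identity and could take some of its reads.

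**Figure D2:**
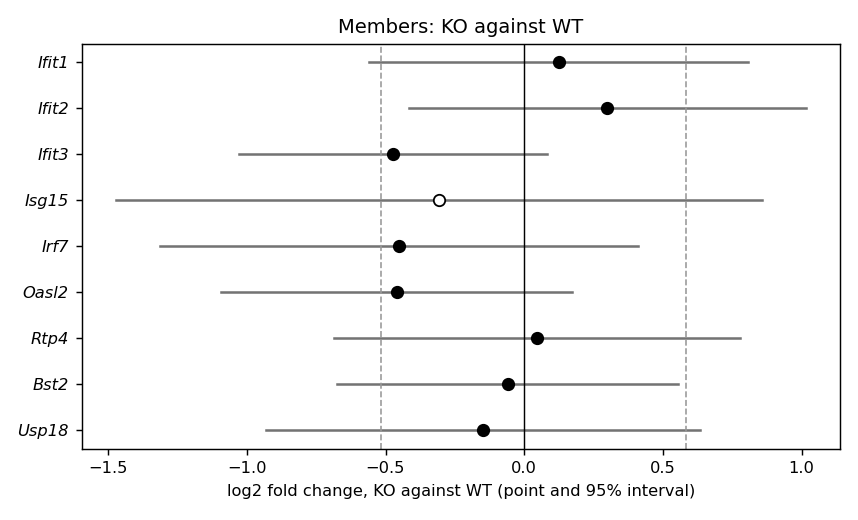
Log2 fold change, KO against WT, of each of the 9 genes with its 95% interval. Filled points are the 8 tested genes, the open point is Isg15 in the fit without a filter, and the dashed lines mark fold changes of 0.7 and 1.5. All 9 intervals include 0, from -0.47 for Ifit3 to 0.30 for Ifit2.

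To order the genes by level, CPM was divided by the length of exon in kilobases. In WT, Bst2 (2.17 ± 0.401 CPM per kilobase, SD, n = 3) and Ifit3 (1.90 ± 0.585) stood above the others, and their ranges over the 6 libraries, 1.41 to 2.55 and 1.23 to 2.32, overlapped each other. Rtp4 followed at 0.660 ± 0.209 with a highest library of 0.895, below every library of Bst2 and Ifit3. Isg15 was at 0.552 ± 0.0294, Irf7 at 0.413 ± 0.0937, Ifit1 at 0.390 ± 0.0700, Ifit2 at 0.355 ± 0.130, Usp18 at 0.343 ± 0.0594 and Oasl2 at 0.268 ± 0.0334. Each of these overlapped with its neighbours in the order over the 6 libraries. Farther apart in the order, every library of Rtp4, Isg15 and Ifit1 lay above every library of Oasl2, whose highest was 0.305, and every library of Rtp4 above the highest of Usp18, 0.407. In KO, Bst2 (2.08 ± 0.587) and Ifit3 (1.38 ± 0.0993) were again the first and Oasl2 (0.195 ± 0.0493) again the last. The divisor is the full merged exon length of the table, which for Irf7 spans the whole locus.

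The rest of the pathway was examined with 170 further genes in lists of ligands, receptors, signalling proteins, sensors and target genes, of which 120 were tested. In edgeR, 7 of the 120 passed the DEG thresholds, 3 of them higher in KO and 4 lower, beside 5.35% of all tested genes. Of the 120, 8 had an unadjusted p under 0.05 in edgeR, beside 9.89% of all tested genes. An adjusted p under 0.05 was reached by 0, where the smallest was 0.291. DESeq2 also placed 7 past the DEG thresholds, 4 higher and 3 lower, beside 4.94% of all tested genes. In DESeq2 0 had an adjusted p under 0.05, beside 0.288% of all tested genes. The median log2 fold change was -0.038, with 51 genes higher and 69 lower. Over all tested genes it was -0.0042, with 7712 higher and 7911 lower. The count in edgeR rested on single libraries, being 3 without W and 12, of which 10 were higher, without K3.

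Interferon transcripts themselves were nearly absent. Of 21 ligand genes, 18 had no count in any library, Ifnb1 among them, which allows up to 3 counts or 0.0934 to 0.122 CPM in a library. Ifnab had 1 count in W3, Ifnz had 3 counts in W2 and 4 in W3, and Ifng, the type II interferon, had 1 count in K1 and 2 in K2. The receptor for type I interferon was expressed, with Ifnar1 at 4.78 ± 0.716 CPM (SD, n = 3) in WT and 5.70 ± 0.847 CPM in KO. Ifnar2 was at 1.71 ± 0.400 and 1.48 ± 0.249 CPM. Neither passed the test, with log2 fold changes of 0.25 (SE 0.18) and -0.21 (SE 0.28). Of the 5 tested receptor genes 0 passed the DEG thresholds in edgeR, beside 5.35% of all tested genes.

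Of the 14 tested genes of signal transduction, 1 passed the DEG thresholds in edgeR, beside 5.35% of all tested genes. Socs3, a cytokine-induced inhibitor of JAK kinases, had 2.03, 1.31 and 0.889 CPM in W, W2 and W3 and 0.967, 0.775 and 0.337 CPM in K1, K2 and K3. K2 and K3 lay below the WT range and K1 inside it, and the log2 fold change was -1.02 (SE 0.44), with an adjusted p of 0.484 in edgeR. The call was kept in 2 of the 6 fits that left out 1 library, those without W3 and without K1. Over the 6 fits its value ranged from -1.33 to -0.67. Stat2 and Irf9, which take part in the type I transcription complex, did not pass. Stat2 was at 2.83 ± 0.235 CPM in WT and 3.15 ± 1.03 CPM in KO, and Irf9 at 3.36 ± 0.385 and 2.92 ± 0.343 CPM. Their log2 fold changes were 0.15 (SE 0.26) and -0.21 (SE 0.21). Of 17 tested sensors of nucleic acid, 0 passed the DEG thresholds in edgeR, beside 5.35% of all tested genes, and their median was -0.081.

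Among 50 tested genes in the list of other antiviral interferon-stimulated genes, 18 were higher and 32 lower in KO, with a median of -0.064. In edgeR 1 passed the DEG thresholds as higher and 3 as lower, beside 5.35% of all tested genes. In DESeq2 these were 0 and 2, beside 4.94%. Trim30a had 2.80, 2.46 and 2.21 CPM in WT and 1.45, 1.96 and 1.16 CPM in KO, without overlap, and its log2 fold change was -0.71 (SE 0.26). Shisa5 had 3.57, 2.74 and 2.70 CPM in WT and 2.01, 1.71 and 1.98 CPM in KO, also without overlap, with -0.65 (SE 0.23). Both passed in edgeR and in DESeq2, with adjusted p of 0.421 and 0.384 in edgeR. Without W neither passed in edgeR, and Trim30a did not pass without K1 or without K3 either. Ifi27l2a had 0.811, 0.467 and 0.889 CPM in WT and 0.443, 0.408 and 0.150 CPM in KO, a log2 fold change of -1.11 (SE 0.50). Trim21, a ubiquitin ligase that binds antibodies in the cytosol, had 0.811, 0.374 and 0.725 CPM in WT and 1.61, 1.18 and 0.786 CPM in KO, 0.91 (SE 0.41). Ifi27l2a and Trim21 passed in edgeR and not in DESeq2, and in edgeR they were kept in 3 and 2 of the 6 fits without 1 library. Ifi27l2a was lost without W, W3 or K3, and Trim21 without W2, W3, K1 or K2. Rsad2 (viperin) had 2.79 ± 0.322 CPM in WT and 3.01 ± 0.413 CPM in KO, a log2 fold change of 0.11 (SE 0.21). Mx1, a dynamin-like antiviral GTPase, was too low to test, with 3, 4 and 7 counts in WT and 3, 0 and 3 in KO.

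**Figure D3:**
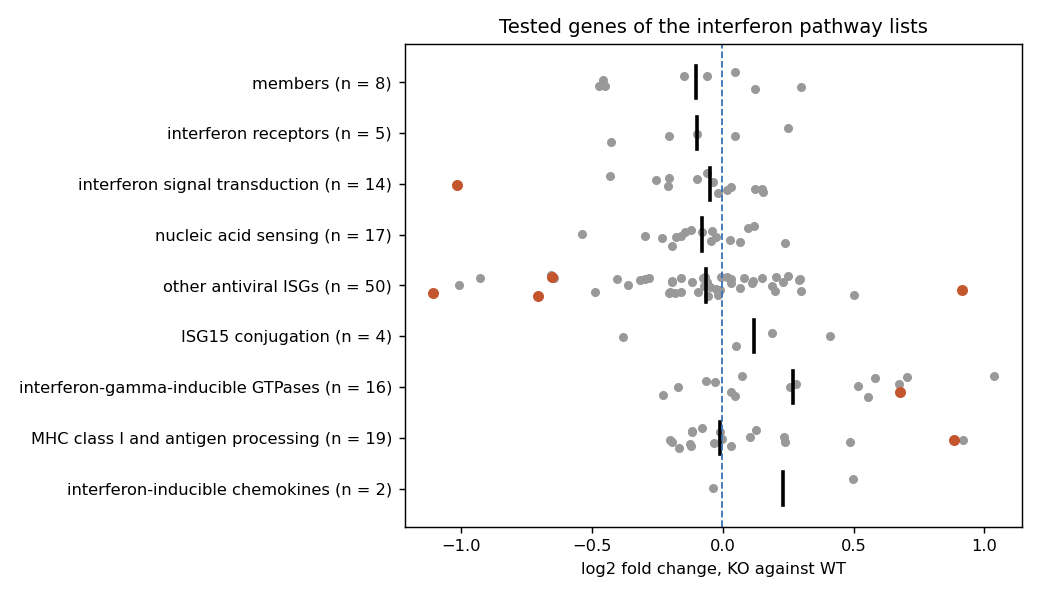
Log2 fold change, KO against WT, of every tested gene in the interferon pathway lists (points, spread vertically for legibility), with the median of each list as a black bar and the median of all tested genes as a blue dashed line. Orange points passed the DEG thresholds in edgeR, and none of them is among the 8 tested members.

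The list of interferon-gamma-inducible GTPases, which attack membranes around intracellular microbes, had 12 of its 16 tested genes higher in KO and a median of 0.27. Over all 15623 tested genes, 7712 were higher and the median was -0.0042. In edgeR 1 of the 16 passed the DEG thresholds, beside 5.35% of all tested genes. In DESeq2 2 of the 16 passed, beside 4.94%. Gbp9, a guanylate-binding protein, had 4.06, 3.98 and 3.92 CPM in W, W2 and W3 and 7.13, 6.65 and 5.35 CPM in K1, K2 and K3. All KO libraries lay above all WT libraries, which were close together. The log2 fold change was 0.68 (SE 0.17), with an adjusted p of 0.291 in edgeR, and it passed in all 6 fits that left out 1 library and in DESeq2. Its range over these 6 fits was 0.59 to 0.79. K1 was the highest library in 9 of the 16 GTPases, beside 13.8% of all tested genes. K3 was the lowest in 10 of the 16, beside 13.5% of all tested genes. Gbp4, chosen after its values were seen because it passed in DESeq2, had 2.80, 3.21 and 3.06 CPM in WT and 11.2, 5.26 and 2.21 CPM in KO. Its log2 fold change was 1.04 (SE 0.58) and was 0.30 without K1 in edgeR, where the unadjusted p with all 6 libraries was 0.128. It passed the DEG thresholds in edgeR without K3, at 1.45, and with robust estimation off. The paralogs Tgtp1 and Tgtp2, also singled out after their values were seen, are copies between which reads may be split. They had 281 and 277 counts in K1 and 39 and 31 in K3.

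Of 19 tested genes of major histocompatibility complex (MHC) class I and antigen processing, 8 were higher and 11 lower, with a median of -0.010. In edgeR 1 of the 19 passed the DEG thresholds, beside 5.35% of all tested genes. In DESeq2 2 of the 19 passed, beside 4.94%. H2-Q5 passed in edgeR and DESeq2, with 1.74, 1.09 and 1.05 CPM in WT and 3.91, 1.43 and 1.80 CPM in KO and a log2 fold change of 0.88 (SE 0.39). K1 stood far above the other 5 libraries, and the value was 0.33 without it. The call was also lost without W2 and without W3. H2-Q7, which passed in DESeq2 and was singled out for it, showed the same K1 peak, with 6.17, 5.32 and 5.37 CPM in WT and 18.6, 7.22 and 5.98 CPM in KO. Its log2 fold change was 0.92 (SE 0.47) in edgeR and 0.24 without K1. In edgeR it passed the DEG thresholds without K3, at 1.21, with robust estimation off, and with the replicate block over all 6 libraries, at 0.74. These H2-Q genes are close copies of each other, so their separate counts are uncertain. Of 4 tested genes of ISG15 conjugation and 2 of interferon-inducible chemokines, 0 passed in edgeR or DESeq2, beside 5.35% and 4.94% of all tested genes.

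The KO libraries were set against each other. K3 had the lowest level in 6 of the 9 genes (Isg15, Irf7, Oasl2, Rtp4, Bst2 and Usp18). It was the lowest library in 45.8% of the 120 tested pathway genes and in 13.5% of all tested genes. K1 was the highest in 35.0% of the pathway genes and in 13.8% of all tested genes. The summed level of the 9 genes was 12.3, 14.9 and 13.9 CPM in W, W2 and W3 and 14.1, 13.0 and 9.39 CPM in K1, K2 and K3, so K3 alone lay below the WT range. The median deviation of the 8 tested genes from the WT mean, on the log2 scale, was 0.13 in K1, -0.014 in K2 and -0.51 in K3. For the antiviral list these were 0.085, 0.077 and -0.36, and for the GTPases 0.86, 0.17 and -0.30. K1 was thus far above the WT mean for the GTPases and close to it for the 9 genes, while K3 was below it for each list. With K3 left out, the median log2 fold change of the members was 0.032, and with K1 left out it was -0.39.

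The summed level of leukocyte markers was also lowest in K3. Of 22 markers, 14 were tested. The summed level of all 22 was 25.7 to 85.1 CPM in WT and 21.4 to 36.9 CPM in KO, lowest in K3 and highest in W3. A large part of it was 1 gene, Lyz2, at 14.9, 6.35 and 37.2 CPM in W, W2 and W3 and 10.5, 6.97 and 4.04 CPM in K1, K2 and K3. Ptprc (CD45) had 29, 25 and 97 counts in WT and 26, 20 and 10 in KO. Of the 14, 3 were higher and 11 lower in KO, with a median log2 fold change of -1.10. Their median deviation from the WT mean was -0.25, -0.62 and 1.02 in W, W2 and W3. In K1, K2 and K3 it was -0.42, -0.59 and -1.39, so K1 and K2 lay inside the WT range. W3 stood far above the other libraries. The groups did not overlap in 3 of the 14, beside 15.4% of all tested genes. In edgeR, 2 (Csf1r and S100a9) passed the DEG thresholds as lower and 1 (Cd3e) as higher, beside 5.35% of all tested genes. In DESeq2, 5 (Ptprc, Csf1r, C1qb, C1qc and S100a9) passed as lower and 1 (Cd3e) as higher, beside 4.94%. The other T cell markers were too low to test, with Cd3g at 1 count or fewer, Cd4 at 2 or fewer and Cd8a at 4 or fewer in each library, and the highest count of Cd4 and of Cd8a was in a WT library. The B cell markers Ms4a1 and Cd79a had 4 counts or fewer in each library, with Cd79a at 0 in W2, W3, K2 and K3. In W3, where the leukocyte sum was highest, the members' median deviation was -0.074. In W2, with a leukocyte sum of 25.7 CPM, the members' median deviation was 0.25, the highest of all libraries. In K2, with a leukocyte sum of 27.2 CPM, it was -0.014. Siglech, which marks the plasmacytoid dendritic cells that make type I interferon, had 0, 0 and 2 counts in WT and 1, 0 and 1 in KO. Of the other markers listed for these cells, Ccr9 had 6, 7 and 12 counts in WT and 5, 5 and 2 in KO. Its groups did not overlap in CPM. Spib had 2, 1 and 1 against 0, 1 and 0, Bcl11a 0, 2 and 0 against 0, 1 and 0, and Klk1 0, 0 and 0 against 1, 1 and 0. All of these were too low to test. Cox6a2 was tested, with 295, 243 and 192 CPM in W, W2 and W3 and 237, 273 and 299 CPM in K1, K2 and K3. Its log2 fold change was 0.15 (SE 0.18). Its level was far above that of the other markers listed for these cells, so it cannot be taken as a measure of them in whole muscle. Which cells it came from was not tested. Endothelial markers summed to 64.6 to 107 CPM in WT and 97.4 to 115 CPM in KO, and fibroblast markers to 79.6 to 282 and 69.6 to 151 CPM. All 8 endothelial markers were higher in KO, with a median log2 fold change of 0.29. In edgeR 0 of the 8 passed the DEG thresholds, beside 5.35% of all tested genes. Only Cdh5, at 0.50 (SE 0.16), had groups without overlap, beside 15.4% of all tested genes. Their median deviation was 0.31 in W and 0.17 to 0.50 in KO. Of the 7 fibroblast markers, 1 was higher and 6 lower, and 0 passed in edgeR, beside 5.35% of all tested genes. The part of these cells in the levels of the interferon-stimulated genes was not tested.

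**Figure D4:**
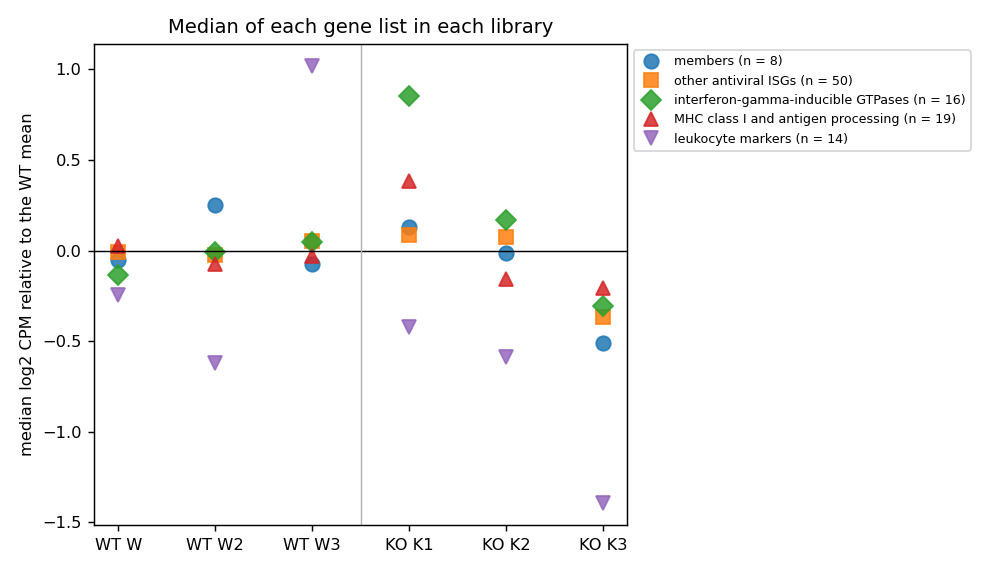
Median over the tested genes of each list of the log2 CPM relative to the mean of the WT libraries (vertical axis), for each of the 6 libraries (horizontal axis). K3 is below 0 for all 5 lists, from -0.21 for MHC class I to -1.39 for the leukocyte markers, and K1 is highest for the GTPases at 0.86.

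The genes with the most alike pattern over the 6 libraries were taken as those with the highest Pearson correlation to the mean of the standardised log2 CPM of the 8 tested members. This mean was -0.039, 0.40 and 0.10 in W, W2 and W3 and 0.43, 0.24 and -1.14 in K1, K2 and K3. The 10 genes were Adamts4 (r = 0.987), Mastl, Rasa3, Gm37963, Gm8864, Adnp2, Hist1h2bj, Gm17823, Slc15a2 and Ssbp1 (r = 0.961). Each had its lowest level in K3, and none is in the interferon lists. The points share the libraries and their scaling, and the highest of 15623 correlations over 6 points are large by selection.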

How the data were processed

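TA muscle RNA of 3 WT and 3 SELENOW KO mice was sequenced, and groups were taken from the sample labels. Reads (paired-end) were aligned by the authors with HISAT2 and counted with featureCounts, and raw counts per gene were deposited together with gene positions and lengths. The study's methods name GRCm38 and the submitters' processing notes GRCm39. Of 52135 genes placed by GENCODE M21 (GRCm38), 1546 had the same start and end in the table, so its positions are given as GRCm39. Handling of strand and of reads mapping to several places is not given in the sources used here, so paralogs and overlapping genes are uncertain. Symbols were matched by Ensembl ID for 52083 of 55416 genes. The WT column without a number was used as a WT library.

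Genes were filtered with filterByExpr, scaled by TMM factors (0.893 to 1.20) and compared with edgeR (4.0.16, R 4.3.3; quasi-likelihood, robust estimation) on all 6 libraries, with Benjamini-Hochberg adjustment over 15623 genes. Log2 fold changes used a prior count of 0.125 and log2 CPM a prior count of 1. Intervals are 95%. DESeq2 (1.42.0) was the alternative tool, and sequence similarity was taken with blastn (2.17.0). The fits were tested on simulated data. Chi-square per degree of freedom between libraries of a group was 19.3 to 70.5, so no pair was 1 library.

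The members and lists were chosen with earlier results of these data known. Named genes were all members, genes of the lists past the DEG thresholds, 10 pathway genes fixed by name (1 is not reported here), Selenow and the 10 most alike genes. Alternatives changed the tool, scaling, filter, robust estimation, mitochondrial genes and replicate block, and left out each library.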

Additional observations from a re-analysis of the deposited data

How the results depend on the processing

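In 113 values of the 8 tested members under other settings, 104 kept direction and call. None passed the DEG thresholds under DESeq2, DESeq2 size factors, either filter, robust estimation off, without mitochondrially encoded genes or with no fold threshold. With 1 library left out, the number of members past the thresholds was 0 to 1 (Ifit3 without W), the median member log2 fold change -0.39 (without K1) to 0.032 (without K3), and the number of pathway genes past the thresholds 3 (without W) to 12 (without K3). Log2 fold changes then ranged from -0.17 to 0.32 for Rtp4, -0.20 to 0.16 for Bst2, -0.39 to 0.032 for Usp18 and -0.036 to 0.40 for Stat2. Without a filter on low counts, 11 pathway genes passed, with 31780 genes tested.

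Deviations from the group mean of W and K1, W2 and K2, and W3 and K3 correlated at 0.060, 0.044 and -0.074. W, taken here as number 1, correlated best with K1. W2 correlated best with K3 at 0.093, and W3 best with K1 at 0.083. With 3 libraries per group these values cannot show or exclude a pairing by replicate number, and no source used here states one. With a replicate block over numbers 2 and 3 only (4 libraries), 1 member passed (Ifit3, -0.74) and 3 pathway genes, and Ifit2 was at -0.12 and Stat2 at -0.078. With the replicate block over all 6 libraries, W taken as number 1, 0 members and 6 pathway genes passed. The cause of these shifts was not tested. Counts of 7 to 130 per library limit the precision of every member. The settings of genes that are no members, and the sum of Ifit3 and Ifit3b, were chosen after seeing the data.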
